A study of Sus scrofa with 6 samples.

Results

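The genes described here are 10 genes listed as genes of the glia and neurons that serve the atrial wall. FABP7, S100B, SOX10 and GFAP are listed for glia, NTF3 as a neurotrophin gene, and UCHL1, SYT1, SYN1, RAB3A and VSNL1 for neurons. They were taken by gene symbol, as every probe set whose single symbol in the platform annotation is 1 of the 10, which gave 14 probe sets. The array holds 6765 genes with a single symbol. The 10 genes were chosen by their intensities and group differences on these same arrays, known from earlier work on the data. The values of the 10 genes are therefore a description, and no p-value is given for them.

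Total RNA of left atrial tissue was taken from 6 male pigs of the Lanyu miniature strain, 18 months old, and each animal was put on its own porcine Affymetrix array. In MRV and MR animals a hole of 2.8 mm had been made surgically in the middle scallop of the posterior leaflet of the mitral valve, which lets blood flow back into the atrium, and they were killed 12 months later. MRV animals were also given valsartan, which blocks angiotensin II at its type I receptor, daily at a dose of 3.43 mg/kg, beginning 1 week ahead of the operation. MR animals had no valsartan, and NC animals were age-matched normal controls with no surgery recorded, so that regurgitation and surgery cannot be told apart in comparisons with NC. Each group had 2 animals, called here by group and number (MRV1, MRV2, MR1, MR2, NC1 and NC2). The atrial muscle genes NPPA and MYL4 read between 18414 and 21842 on the 6 arrays, so the labelled tissue carried its defining markers.

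The atria receive sympathetic and parasympathetic axons, and small ganglia of neuron cell bodies lie in the fat and connective tissue on the atrial surface. Schwann cells wrap the axons, and satellite glia surround the ganglion cells; both arise from the neural crest under the transcription factor SOX10. Nerve terminals release transmitter when calcium enters and vesicles fuse with the membrane, a step in which synaptotagmin (SYT1) senses calcium. Neurotrophins made by target tissue keep sympathetic and sensory neurons alive and guide their branches. In bulk tissue, fewer cells of a type and less RNA per cell cannot be told apart.

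FABP7 and NTF3 were the members whose values in the lesioned atria lay apart from those in the controls: FABP7 was 5.69-fold and NTF3 2.37-fold lower in MR than in NC by the ratio of mean intensities, and both were also lower in MRV than in NC. The other glial genes, S100B, SOX10 and GFAP, did not share that pattern. The synaptic genes SYT1, SYN1 and RAB3A and the calcium sensor gene VSNL1 read highest in NC1 and lowest in MRV1, and UCHL1 read highest in NC2. Across the fit on 14399 probe sets, limma called 1 probe set (0.00694%) in MR minus NC, the asparagine synthetase gene ASNS, and 0 (0%) in MRV minus MR and in MRV minus NC. No member was called in any of the 3 comparisons. At an unadjusted limma p under 0.05 there were 580 probe sets in MR minus NC, 1047 in MRV minus MR and 761 in MRV minus NC.

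**Figure D1:**
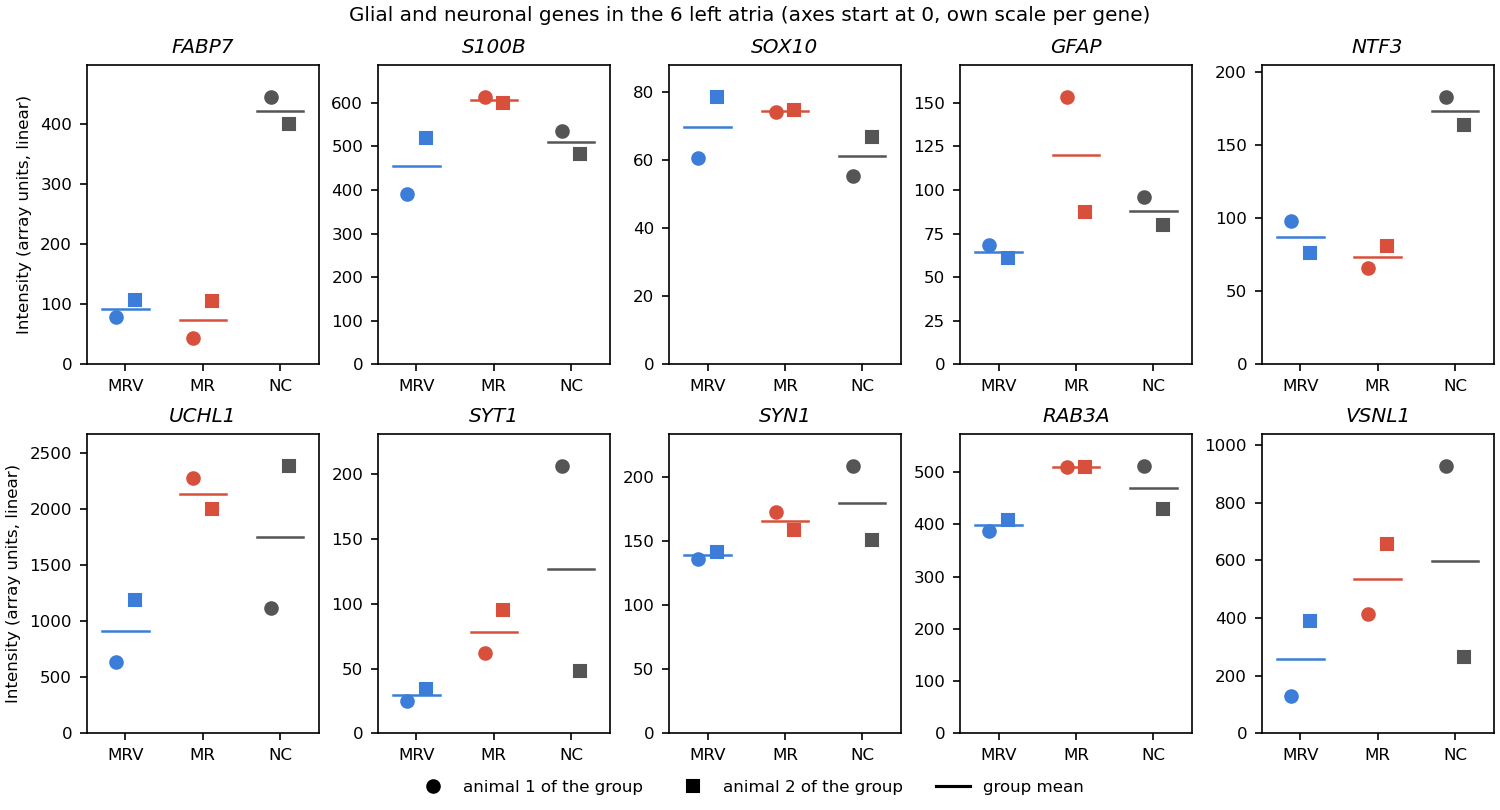
Intensity of the 10 genes (probe set with the highest mean per gene, linear array units, axes from 0) in the MRV, MR and NC animals; circles are animal 1 and squares animal 2 of a group, and lines are group means. FABP7 and NTF3 separate NC from the other 4 arrays, while SYT1, VSNL1 and UCHL1 differ widely between the 2 NC animals.

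Among the glial genes, FABP7 encodes the brain-type fatty acid binding protein, a carrier of long-chain fatty acids found in radial glia, satellite glia and immature Schwann cells. It read 78.6 and 106.8 in MRV1 and MRV2, 43.3 and 104.9 in MR1 and MR2, and 444.4 and 399.3 in NC1 and NC2. Both controls stood far above the 4 lesioned atria, with no overlap, and MRV and MR overlapped. The log2 difference, taken on log2(intensity + 16) here and throughout, was -2.37 (SE 0.34, the moderated standard error of limma) in MR minus NC, -2.02 (SE 0.34) in MRV minus NC and 0.35 (SE 0.34) in MRV minus MR. Leaving out 1 animal at a time, MR minus NC lay between -2.88 without MR2 and -1.86 without MR1, and MRV minus NC lay between -2.21 and -1.83. MRV minus MR turned to -0.17 without MR1.

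S100B, a calcium-binding protein gene expressed by Schwann cells and other glia and also by adipocytes, read 390.9 and 518.8 in MRV1 and MRV2, 612.5 and 600.6 in MR1 and MR2, and 535.6 and 482.4 in NC1 and NC2. The MR animals were above both other groups without overlap, and MRV and NC overlapped. Its log2 difference was 0.25 (SE 0.16) in MR minus NC, -0.42 (SE 0.16) in MRV minus MR and -0.17 (SE 0.16) in MRV minus NC. Without MRV1, MRV minus MR was -0.22 and MRV minus NC turned to 0.029. With the actin ratio of each array as a covariate, these were 0.12, -0.11 and 0.02.

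SOX10, the transcription factor gene that marks neural crest glia throughout life, read 60.7 and 78.4 in MRV1 and MRV2, 74.0 and 74.6 in MR1 and MR2, and 55.3 and 66.9 in NC1 and NC2. Its mean lay at the 42.7th percentile of all probe sets, just above the filter on dim probe sets at the 40th. The MR values were above the NC values without overlap (log2 difference 0.23, SE 0.14, or 0.12 without NC1), and the MRV values overlapped with both groups. SOX10 thus did not follow FABP7, which was lower in MR.

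GFAP, the intermediate filament gene of astrocytes and non-myelinating Schwann cells, had 4 probe sets that disagreed. The brightest read 68.3 and 61.1 in MRV1 and MRV2, 153.1 and 87.2 in MR1 and MR2, and 96.2 and 79.7 in NC1 and NC2. The MRV values were below both other groups, and the difference in MRV minus MR was -0.71 (SE 0.24), or between -1.07 and -0.36 when 1 animal at a time was left out. The next probe set read 81.5 and 76.2 in MRV1 and MRV2, 70.2 and 66.9 in MR1 and MR2, and 65.4 and 70.8 in NC1 and NC2, with the MRV values highest and a difference of 0.17 (SE 0.10) in MRV minus MR. The other 2 probe sets were below the filter, between 22.8 and 55.2 on the 6 arrays. With the mean of the 4 probe sets the MRV minus MR difference was -0.14, so no direction is given for GFAP.

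NTF3 encodes neurotrophin-3, a secreted ligand of the receptor TrkC (NTRK3) that supports sensory and sympathetic neurons during development. It read 98.3 and 76.3 in MRV1 and MRV2, 65.7 and 80.7 in MR1 and MR2, and 182.5 and 163.9 in NC1 and NC2. As for FABP7, both controls were above the 4 lesioned atria, and MRV overlapped with MR. The log2 difference was -1.09 (SE 0.16) in MR minus NC, -0.88 (SE 0.16) in MRV minus NC and 0.21 (SE 0.16) in MRV minus MR. Leaving out 1 animal at a time, MR minus NC lay between -1.21 and -0.97 and MRV minus NC between -1.03 and -0.73, while MRV minus MR lay between 0.054 and 0.36. Of 11 tested adipocyte markers, 0 were called in MR minus NC by limma; 10 had lower means in MR than in NC, against 47.4% of tested genes, and 3 were lower without overlap, against 12.4%. Their median log2 difference was -0.42, or -0.16 without NC1. The summed intensity of the adipocyte list was 6208 and 5670 in MRV1 and MRV2, 7627 and 7110 in MR1 and MR2, and 9668 and 7681 in NC1 and NC2. ADIPOQ, the adiponectin gene and a defining marker of fat cells, lay below the filter at 20.3 to 35.1 on the 6 arrays. The part of fat cells in the FABP7 and NTF3 differences was not tested.

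UCHL1, also known as PGP9.5, encodes a ubiquitin hydrolase that is abundant in neurons and serves as a stain for nerve fibres. It read 633.4 and 1186.4 in MRV1 and MRV2, 2276.8 and 1997.5 in MR1 and MR2, and 1121.8 and 2383.7 in NC1 and NC2. The mean of UCHL1 lay at the 95.9th percentile of all probe sets, against 41.1 for the brighter SYT1 probe set. Both MRV animals were below both MR animals, whereas the 2 NC animals differed so widely that they overlapped with both groups. The log2 difference was -1.28 (SE 0.42) in MRV minus MR, 0.38 (SE 0.42) in MR minus NC and -0.90 (SE 0.42) in MRV minus NC. Leaving out 1 animal at a time, MRV minus MR lay between -1.73 and -0.84. MR minus NC turned to -0.16 without NC1, and MRV minus NC lay between -1.44 without NC1 and -0.37 without NC2.

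SYT1 encodes the calcium sensor of synaptic vesicles. Its brighter probe set read 24.9 and 34.5 in MRV1 and MRV2, 61.7 and 95.0 in MR1 and MR2, and 206.1 and 48.1 in NC1 and NC2. NC1 was above the other 5 arrays, the MR animals lay between the 2 NC animals, and both MRV animals were lowest. The log2 difference was -1.03 (SE 0.56) in MRV minus MR and -1.39 (SE 0.56) in MRV minus NC, and the MRV mean itself was below the filter. MRV minus NC was -0.50 without NC1 and -2.29 without NC2. MR minus NC was 0.54 without NC1, against -0.36 (SE 0.56) with both controls. The second SYT1 probe set, below the filter, read 6.8 and 6.6 in MRV1 and MRV2, 7.8 and 8.6 in MR1 and MR2, and 16.7 and 8.7 in NC1 and NC2, again with NC1 highest.

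VSNL1 encodes visinin-like 1, a calcium sensor of neurons that is also expressed by muscle cells of the sinus node. It read 127.7 and 389.2 in MRV1 and MRV2, 414.7 and 656.6 in MR1 and MR2, and 926.3 and 265.7 in NC1 and NC2. The MRV values were below the MR values, by a narrow gap between MRV2 and MR1, and the 2 NC values enclosed most of the rest. The log2 difference was -1.16 (SE 0.71) in MRV minus MR, -1.09 (SE 0.71) in MRV minus NC and 0.06 (SE 0.71) in MR minus NC. Without NC1 the comparisons with NC were -0.22 for MRV and 0.93 for MR, and without MRV1 the MRV minus MR difference was -0.41. Without NC2 they were -1.97 for MRV and -0.81 for MR, and without MRV2 the MRV minus MR difference was -1.905.

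SYN1 and RAB3A encode synapsin 1, which tethers vesicles to the terminal's cytoskeleton, and a small GTPase that guides vesicles to the membrane. SYN1 read 135.7 and 141.5 in MRV1 and MRV2, 172.3 and 158.1 in MR1 and MR2, and 208.1 and 150.9 in NC1 and NC2. RAB3A read 387.2 and 408.4 in MRV1 and MRV2, 509.7 and 509.5 in MR1 and MR2, and 511.4 and 429.3 in NC1 and NC2. Both genes were lower in both MRV animals than on the other 4 arrays, by small amounts. In MRV minus MR the log2 difference was -0.23 (SE 0.16) for SYN1 and -0.35 (SE 0.12) for RAB3A, and in MRV minus NC it was -0.32 (SE 0.16) for SYN1 and -0.23 (SE 0.12) for RAB3A. Without NC1 the MRV minus NC difference was -0.11 for each gene, and without NC2 it was -0.54 for SYN1 and -0.35 for RAB3A.

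**Figure D2:**
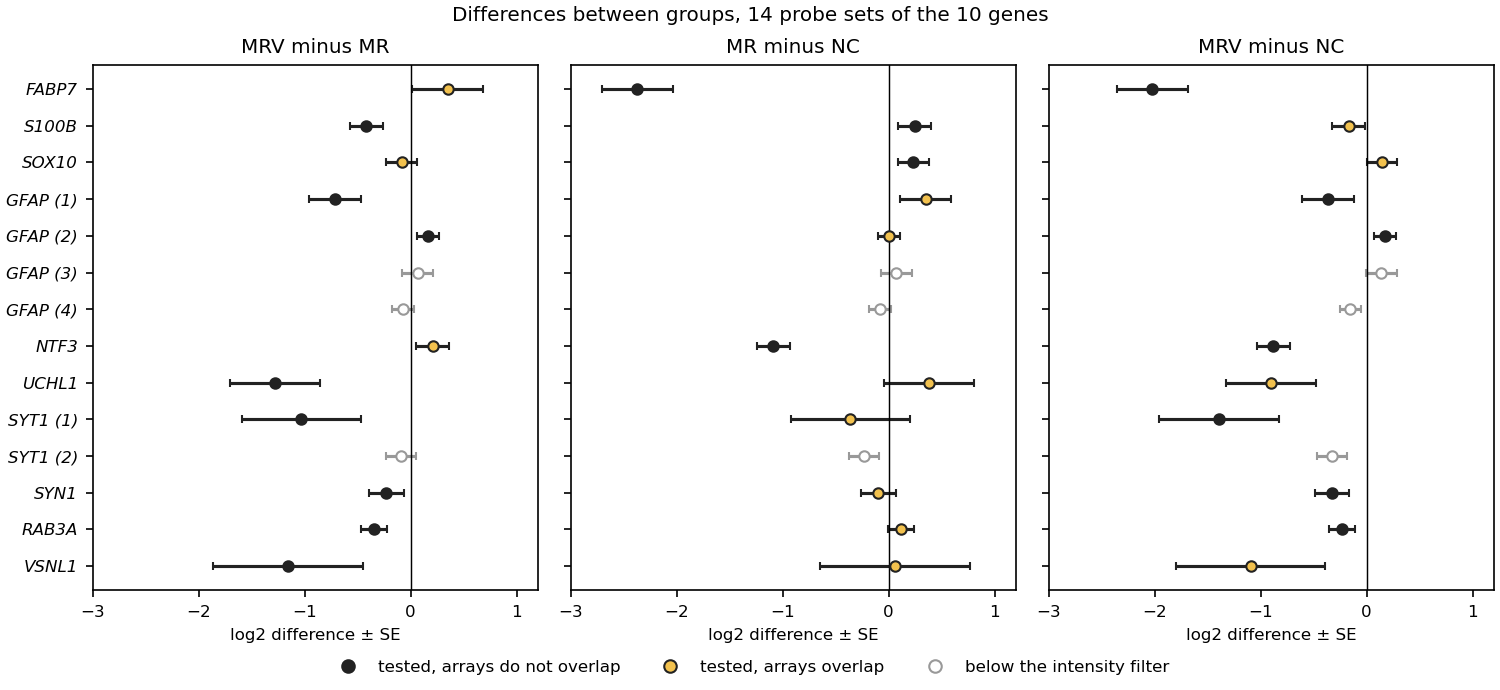
Log2 difference with its moderated standard error for the 14 probe sets of the 10 genes in MRV minus MR, MR minus NC and MRV minus NC; filled points mark probe sets whose arrays do not overlap between the groups, yellow points overlap, and open grey points lie below the intensity filter. FABP7 and NTF3 lie left of 0 in both comparisons with NC, and UCHL1, SYT1 and VSNL1 lie left of 0 in MRV minus MR with wide errors.

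Counted over genes, each by its probe set with the highest mean, 2 of the 10 were lower in MR than in NC without overlap (FABP7 and NTF3), against 12.4% of 5407 tested genes, and 2 were higher (S100B and SOX10), against 15.7%. In MRV minus MR, 7 of the 10 were lower without overlap, against 28.6% of tested genes, and 0 were higher, against 15%. The 7 were S100B, GFAP, UCHL1, SYT1, SYN1, RAB3A and VSNL1. In MRV minus NC, 6 were lower without overlap, against 21.7%, namely FABP7, GFAP, NTF3, SYT1, SYN1 and RAB3A, and 0 were higher, against 13.3%. Over the 11 tested probe sets, 4 did not overlap in MR minus NC, 8 in MRV minus MR and 7 in MRV minus NC, against 26.8%, 42.4% and 33.1% of all tested probe sets. GFAP is named above as lower by its brightest probe set alone. Its second tested probe set was higher without overlap in MRV minus MR and in MRV minus NC, and is counted in these 8 and 7. The median log2 difference of the 10 genes was 0.09 in MR minus NC, -0.38 in MRV minus MR and -0.62 in MRV minus NC, while that of all tested genes was 0.01, -0.03 and -0.02. The members were picked with these differences known, so nothing is read from the counts. The comparisons also share arrays: MR serves the first 2 of them, and NC and MRV each serve 2.

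Some array controls also separated MRV from MR, and others did not. The ratio of 3' to 5' actin control signal, which climbs when RNA is degraded, was 2.30 and 1.87 in MRV1 and MRV2, 1.44 and 1.70 in MR1 and MR2, and 1.61 and 1.91 in NC1 and NC2. With this ratio as a covariate, the MRV minus MR difference was -0.25 for SYT1, 0.24 for VSNL1, 0.06 for SYN1, -0.19 for RAB3A and -0.35 for GFAP, against -1.18 for UCHL1. In MRV minus NC it was -0.92 for SYT1, -0.26 for VSNL1, -0.15 for SYN1, -0.13 for RAB3A and -0.15 for GFAP. In MRV minus MR, VSNL1 and SYN1 thus turned direction with this covariate, as did NTF3 (-0.016). SYT1, RAB3A and the brightest GFAP probe set, the one used here, kept their direction at smaller size. The FABP7 and NTF3 differences in MR minus NC were -2.30 and -0.998 with it. A second actin control pair gave ratios of 6.46 and 11.6 in MRV1 and MRV2, 8.10 and 9.11 in MR1 and MR2, and 9.72 and 6.96 in NC1 and NC2, with the groups overlapping. The control probe set for 28S ribosomal RNA read 341 and 558.8 in MRV1 and MRV2, 187.4 and 279.9 in MR1 and MR2, and 117 and 468.4 in NC1 and NC2. Both MRV arrays were above both MR arrays for this control, and NC1 was lowest of the 6. A GAPDH control pair gave 3' to 5' ratios of 1.296 and 1.234 in MRV1 and MRV2 and 1.239 and 1.344 in MR1 and MR2. Its ratios were 1.169 and 1.291 in NC1 and NC2, and all groups overlapped. For the first actin pair both MRV ratios were above both MR ratios, so covariate and group cannot be fully told apart in MRV minus MR. The differences with the covariate are given without standard errors and are a description. The part of these controls in the member differences was not tested.

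The synaptic members were then set beside other neuronal genes, from lists of the axon and its cytoskeleton, of synaptic vesicles and release, and of sympathetic neurons. Of the 23 other genes of these lists on the array, tested or not, 17 read highest in NC1, against 24.4% of all 6765 genes, and 6 were at least 2-fold above each other array in NC1, against 0.458%. The 6 were GAP43, NEFL, NPY, SCG2, SNAP25 and STMN2. This array pattern was noticed after the values had been seen and is a description of 1 animal. Whether the NC1 sample held a ganglion, or more ganglion tissue than the other samples, was not tested. The other 6 genes, MAP1A, CHGA, RAB27B, VAMP2, GATA3 and MAOA, read highest in an MR or MRV animal. Of the 8 glial list genes that are no members, 4 read highest in NC1 and 0 were 2-fold above each other array.

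SNAP25, a membrane protein of the vesicle fusion complex, read 16.8 and 17.8 in MRV1 and MRV2, 54.8 and 113.2 in MR1 and MR2, and 428.0 and 39.3 in NC1 and NC2. On the log2 scale MRV minus MR came to -1.52 (SE 0.92) and MRV minus NC to -2.24 (SE 0.92), the second being -0.73 without NC1 and -3.74 without NC2. SNAP25 passed the filter through MR and NC alone, with its MRV mean below it, so these values are a description. Both MRV arrays were below the other 4, as for SYT1. NPY, a peptide that sympathetic nerves release with noradrenaline, read 20.6 and 16.1 in MRV1 and MRV2, 35.1 and 44.4 in MR1 and MR2, and 411.7 and 18.3 in NC1 and NC2. Its second probe set stayed between 36.7 and 44.2 on the 6 arrays and did not show the NC1 value.

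NEFL, the light neurofilament subunit, read 23.1 and 27.0 in MRV1 and MRV2, 51.6 and 94.5 in MR1 and MR2, and 293.1 and 33.8 in NC1 and NC2. GAP43, a protein of growing and regenerating axon tips, read 43.3 and 36.4 in MRV1 and MRV2, 68.3 and 78.5 in MR1 and MR2, and 205.3 and 48.0 in NC1 and NC2. For GAP43, whose MRV mean was also below the filter, MRV minus NC was -1.09 on the log2 scale (SE 0.54), or -0.20 without NC1 and -1.99 without NC2. Both axonal genes thus had the order seen for SNAP25, with NC1 far above the MR arrays and MRV lowest. STMN2, a microtubule regulator of neurons, read 38.9 and 27.3 in MRV1 and MRV2, 44.9 and 50.5 in MR1 and MR2, and 152.4 and 32.2 in NC1 and NC2, and its second probe set read 331.4 in NC1 and from 9.3 to 73.1 elsewhere. SCG2, a granule protein of neuroendocrine cells, read 186.5 in NC1 and from 39.1 to 54.4 elsewhere. NPY, NEFL, STMN2 and SCG2 lay below the filter and were not tested.

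**Figure D3:**
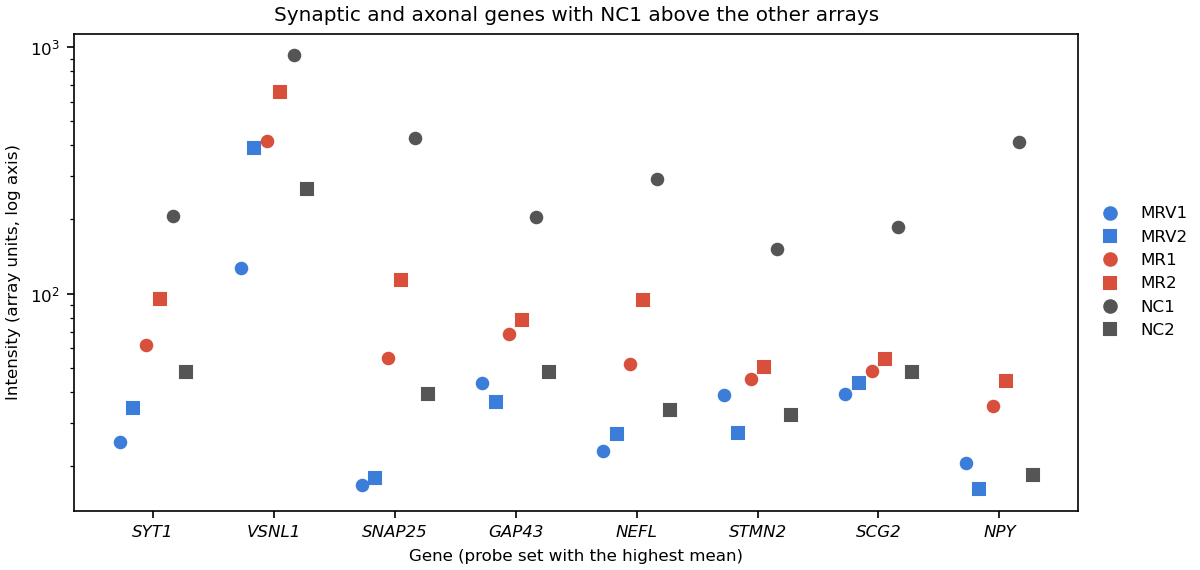
Intensity (log axis) of SYT1, VSNL1 and 6 other neuronal genes on the 6 arrays, blue for MRV, red for MR and dark grey for NC, with circles for animal 1 and squares for animal 2. NC1 is highest for each of the 8 genes, and NC2 lies below both MR arrays.

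UCHL1 went against this pattern. NC1 held the highest value of SYT1, SYN1, RAB3A and VSNL1, but its UCHL1 value was 0.471 of that in NC2, whereas its SYT1 value was 4.28-fold and its SNAP25 value 10.9-fold that in NC2. The 3 genes most like UCHL1 among 5406 others, by Pearson's r of log2 values over the 6 arrays, were BAG3 (r = 0.99), a co-chaperone of muscle, SNX21 (r = 0.98) and PINK1 (r = 0.98), a mitochondrial kinase. BAG3 read 2123.5 and 2393.2 in MRV1 and MRV2, 2755.4 and 2693.9 in MR1 and MR2, and 2301.5 and 2687.8 in NC1 and NC2. These r values were picked as the highest among many genes over 6 arrays, and they describe likeness of array order. Which cells of the atrium gave the UCHL1 signal was not tested.

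By the same measure, FABP7 was most like CCDC65 (r = 0.99), FECH (r = 0.97), the enzyme of the last step of haem synthesis, and OTULIN (r = 0.96), a deubiquitinase. NTF3 was most like MLF1 (r = 0.9995), USP4 (r = 0.98) and CDK9 (r = 0.97), and S100B was most like PPP1R3B (r = 0.99), ING1 (r = 0.99) and ASPN (r = 0.99). MLF1 read 523.7 and 458.3 in MRV1 and MRV2, 431.1 and 480.8 in MR1 and MR2, and 714.5 and 675.5 in NC1 and NC2, a step between NC and the rest like that of NTF3. None of these 12 genes belongs to the neural lists.

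Lists of other cell types were set beside this array pattern. Taken as the mean log2 deviation of a list from its mean over the 6 arrays, the adipocyte list was -0.14 and -0.33 in MRV1 and MRV2, 0.00 and -0.13 in MR1 and MR2, and 0.48 and 0.12 in NC1 and NC2. Of its 11 tested genes, 6 read highest in NC1, against 24.4% of all genes on the array. In NC1, 2 of them (CIDEA and DGAT2) were at least 2-fold above each other array, against 0.458% of all genes. In the fibroblast, smooth muscle and pericyte, leukocyte, endothelium and working muscle lists 0 tested genes were. The fibroblast list was -0.37 and 0.13 in MRV1 and MRV2, -0.09 and 0.07 in MR1 and MR2, and 0.36 and -0.10 in NC1 and NC2, with 2 of 7 tested genes highest in NC1. The smooth muscle and pericyte list was -0.13 and -0.16 in MRV1 and MRV2, 0.05 and 0.05 in MR1 and MR2, and 0.25 and -0.06 in NC1 and NC2, with 5 of 7 tested genes highest in NC1. The leukocyte list, of 2 tested genes, stood at 0.32 in NC1, 0.36 in MRV2 and 0.29 in MR2 and below 0 on the other 3 arrays. The synaptic vesicle list stood at 0.74 in NC1 and 0.24 in MR2 and at or below 0 on the other 4 arrays. Of its 8 tested genes, 4 are members, chosen with these values known, so its values are a description. The working muscle list stayed between -0.07 and 0.11 and the endothelium list between -0.10 and 0.11, and these 2 lists hold 0 members. The part of fat, connective tissue or vessel wall in the NC1 values was not tested.

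The remaining neural lists held few further differences. In the axon list, 4 of 5 tested genes that are no members had lower means in MRV than in MR, against 57.6% of tested genes, with a median log2 difference of -0.44. GAP43, among the 4, passed the filter through MR and NC alone, so the count and the median are a description. MAP1A, a microtubule-associated protein of neurons, read 390.0 and 323.7 in MRV1 and MRV2, 789.4 and 766.0 in MR1 and MR2, and 732.3 and 611.3 in NC1 and NC2. On the log2 scale MRV minus MR was -1.10 (SE 0.14, limma adjusted p = 0.321) and MRV minus NC was -0.88 (SE 0.14, limma adjusted p = 0.694). A second MAP1A probe set differed by 0.01 in MRV minus MR. MAP2, its dendritic relative, read 82.0 and 79.8 in MRV1 and MRV2, 103.9 and 127.5 in MR1 and MR2, and 242.1 and 88.4 in NC1 and NC2, and its MRV minus NC difference of -0.76 (SE 0.40, limma adjusted p = 0.905) was -0.11 without NC1 and -1.41 without NC2.

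In the Schwann cell and glia list, 7 genes that are no members were tested. Their median log2 difference was -0.02 in MR minus NC, -0.11 in MRV minus MR and -0.11 in MRV minus NC. CNP, among them, passed the filter through its MRV mean alone. The myelin gene MBP gave no single direction, with MRV minus MR differences of 0.21, -1.38 and 0.18 for its 3 tested probe sets. GPM6B, a membrane glycoprotein of glia and neurons, read 243.5 and 345.7 in MRV1 and MRV2, 393.1 and 313.9 in MR1 and MR2, and 407.8 and 310.6 in NC1 and NC2, with overlap between all groups. Of these 7 genes, 0 were lower in MR than in NC without overlap, against 12.4% of tested genes. Higher without overlap were 2 (CRYAB and S100A4), against 15.7%. CRYAB is counted by its brighter probe set, which read from 9405.7 in MRV2 to 12201 in MR1. PLN, of the working muscle list, read from 10204 in MR2 to 10972 in MR1. The second CRYAB probe set read 126.3 and 326.7 in MR1 and MR2, overlapping with 412.5 and 82.8 in NC1 and NC2. Which cells gave the signal of CRYAB and S100A4, both counted in the medians above, was not tested.

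**Figure D4:**
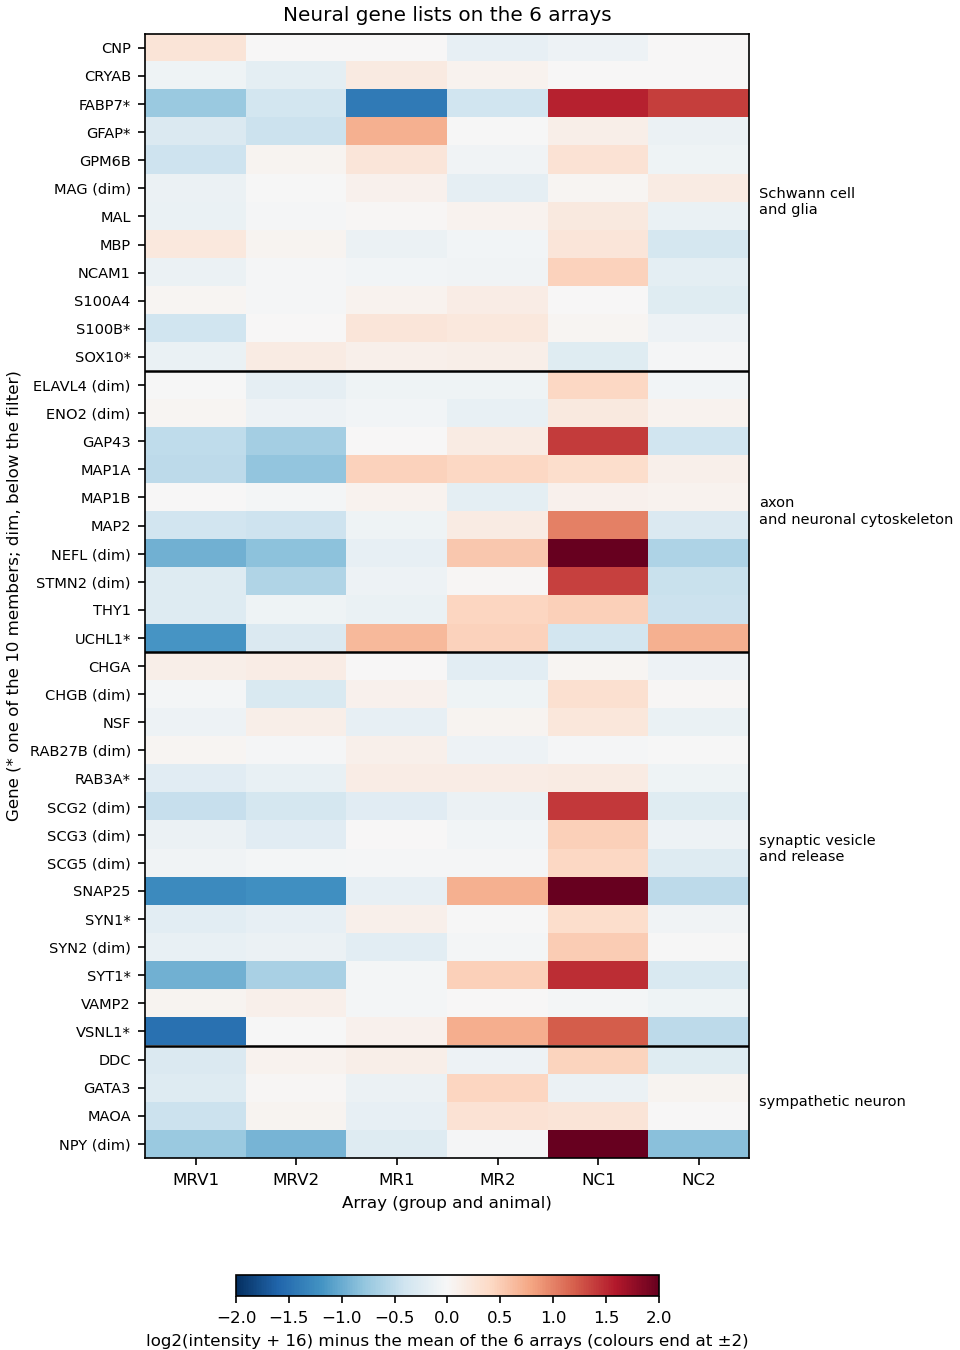
Each row is a gene of the Schwann cell and glia, axon, synaptic vesicle or sympathetic neuron list, and each column an array; colour gives log2(intensity + 16) minus the gene's mean over the 6 arrays. NC1 is highest for 21 of the 28 genes of the 3 neuronal lists, FABP7 is red in both NC arrays, and UCHL1 is red in MR1, MR2 and NC2.

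Of the neurotrophin and trophic factor list, 2 of 6 genes on the array were tested. MDK, the growth factor midkine, read 284.3 and 256.3 in MRV1 and MRV2, 317.8 and 270.2 in MR1 and MR2, and 241.7 and 218.1 in NC1 and NC2, opposite in direction to NTF3 (log2 difference 0.33, SE 0.13, limma adjusted p = 0.99996 in MR minus NC). NTRK3, the receptor gene of neurotrophin-3, and BDNF lay below the filter, at 33.9 to 50.3 and at 26.6 to 32.1 on the 6 arrays. In the fatty acid binding protein family, FABP3, the muscle form, read 3912.9 and 4915.2 in MRV1 and MRV2, 6156.5 and 5007.9 in MR1 and MR2, and 5833.0 and 6457.4 in NC1 and NC2. FABP4, the adipocyte form, read 1671.0 and 790.7 in MRV1 and MRV2, 1529.2 and 2092.9 in MR1 and MR2, and 2910.7 and 1997.1 in NC1 and NC2. For FABP4, MRV minus NC was -1.06 on the log2 scale (SE 0.39, limma adjusted p = 0.905), or -0.79 without NC1, -0.525 without MRV2 and -1.59 without MRV1. FABP5, the epidermal form, differed by -0.18 (SE 0.13) in MR minus NC, against -2.37 for FABP7.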

How the data were processed

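Left atrial RNA of 6 pigs was measured on 6 arrays. The deposited intensity values are linear, normalized between arrays by the authors, and run from 4.8 to 27167; per the submitters' processing notes MAS5 and RMA were used, with no statement of which made the deposited table. Array medians lay between 90.2 and 93.4, and the number of arrays limits the precision. Groups came from the sample titles. The 2 animals of a group are separate pigs per the design text.

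From the 24123 probe sets, 124 controls were removed. Values were taken as log2(intensity + 16), and a probe set was tested where its mean reached the 40th percentile, or 60.8 on the intensity scale, which held for 14399 probe sets, 11 of the 14 member probe sets among them. SYT1 passed although its MRV mean was below the filter, as did SNAP25 and GAP43. CNP, of the Schwann cell and glia list, passed with only its MRV mean above the filter. The limma package (version 3.58.1, R 4.3.3) fitted its linear model with moderated variances (lmFit, eBayes) to all 6 arrays with a mean per group (3 residual and 2.81 prior degrees of freedom), p-values were adjusted by Benjamini-Hochberg and called below 0.05, and the fit was tested on simulated data. Standard errors of dim probe sets came from the fit without the filter. Symbols came from the platform annotation (10069 probe sets with 1 symbol, 198 with several, 13732 with none). Its build is not named, so no coordinates are given.

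The members, the 16 gene lists, 8 of neural genes and of the fatty acid binding family and 8 of other cell types, and the tests were chosen with earlier results of these data known. Of the latter 8, the adipocyte, fibroblast, smooth muscle and pericyte, leukocyte, endothelium and working muscle lists are reported. The sinus node and conduction list had 2 tested genes, 1 of them the member VSNL1, and is not reported as a list. The mesothelium list and, among the neural lists, the cholinergic neuron list had 0 tested genes. Named genes are the members, up to 4 further tested genes per neural list and comparison whose groups do not overlap and differ by 0.5 or more on the log2 scale, and the 3 genes most like FABP7, NTF3, S100B and UCHL1; other genes were chosen after their values were seen. Alternatives were other pseudocounts (1 and 64), no filter, quantile normalization, a replicate block, the 4 compared arrays alone, an actin covariate, the mean of a gene's probe sets, and leaving out each animal.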

Additional observations from a re-analysis of the deposited data

How the results depend on the processing

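The 1 call in MR minus NC, ASNS, was lost (0 probe sets called) with a pseudocount of 1, without the filter, with quantile normalization, with only the 4 compared arrays, with the actin covariate and with the replicate block, and without each of the 4 MR and NC animals (0 to 0 called); 1 was called with a pseudocount of 64. In MRV minus MR the replicate block gave 2 calls against 0. The cause was not tested. Animals 1 and 2 share only a number: same-numbered animals deviated together with r = 0.02 for MRV and MR, 0.21 for MRV and NC and 0.34 for MR and NC, across probe sets. No other setting changed a number of calls. Of the 11 tested member probe sets, 4 did not overlap in MR minus NC; leaving out 1 animal gave 4 to 11, where 1 array fewer makes overlap less frequent. Of 360 alternative values for the members, 344 kept their sign and 16 did not. Part of these could not change. Dropping the filter, using only the 4 compared arrays and the replicate block leave a member's difference of group means as it was. So does the mean of probe sets for a gene with 1 probe set. The count of kept signs therefore overstates how far the settings tested the differences. Of 264 values for list medians, 230 kept their sign and 34 did not. With a pseudocount of 64 the MR minus NC difference of NTF3 was -0.79 and the MRV minus MR difference of SYT1 was -0.60, since the pseudocount shrinks differences of dim probe sets.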
